A study of Mus musculus with 9 samples.

Results

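The genes Ms4a2, Mcpt8, Cd200r3, Cpa3, Prss34, Fcer1a, Ccr3, Gata2, Kit and Hdc, used as markers of basophils, mast cells and eosinophils, were followed in mouse lung after lipopolysaccharide (LPS). These 10 genes were taken by gene symbol from a deposited table of 21930 protein-coding genes, and each symbol matched 1 row. All animals were labelled male C57BL/6 mice of 6 to 8 weeks with no engineered allele named, and each group held 3 lungs. Control mice received saline in the trachea, and whether they were also gavaged with vehicle is not clear from the labels. LPS mice received 2 mg/kg LPS, a component of the Gram-negative bacterial envelope used to provoke acute lung injury, followed by gavage of vehicle. The third group received the same LPS followed by daily gavage of RSBD, which stands for Renshen Baidu Powder and was given as a decoction at a dose that the sources used here do not state. Gavage started 1 day after LPS, and lungs were taken on day 5. The whole lung was sequenced, so fewer cells of a type and less RNA per cell cannot be told apart.

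Basophils and mast cells are granulocytes that carry the high-affinity IgE receptor and store histamine and proteases in their granules. Basophils mature in bone marrow, circulate in blood and enter tissue during inflammation, whereas mast cells mature and stay in tissue and depend on the receptor Kit. Eosinophils, the related granulocytes of allergic and parasitic inflammation, follow eotaxin chemokines through the receptor Ccr3. Gata2 is a transcription factor that all of these lineages use, and it is also active in blood progenitors and endothelium.

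Library totals ranged from 26959662 to 36113905 counts. The lung markers Sftpc, Ager, Scgb1a1 and Foxj1 were detected in every library, and their scaled counts (CPM) summed to at least 24690. Genes of chromosome Y had 6 to 9 reads in each control lung but 7511 to 10918 in each of the other 6 lungs, although all mice were labelled male. Saline treatment and the lack of chromosome Y transcripts cannot be told apart in any comparison with control. Levels are read counts or CPM on library sizes scaled by TMM, fold changes are on the log2 scale ± SE from edgeR's quasi-likelihood fit over 15636 tested genes, and a gene was called at a Benjamini-Hochberg adjusted p under 0.05. All 10 genes passed the filter on low counts. For 6 of them at least 2 control libraries had under 10 reads, so these passed through the treated groups.

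The genes lie on 10 different chromosomes. Letters upstream of the gene models are shown for 5 of the 6 genes called higher after LPS, since GATA factors are known regulators of the lineages. Those of Ccr3, which also rose, are not shown, and a role of GATA factors in the changes was not tested. They were copied from RefSeq's promoter table (GRCm38.p6) and end at the base before the deposited gene model, which in all 10 genes has the coordinates of GENCODE M21. Capitals mark matches to the GATA motif, written NGATAN with A or T first and A or G last, on either strand. Ms4a2 lies at chr19:11623720-11623969 (minus strand), Cd200r3 at chr16:44943428-44943677 (plus), Cpa3 at chr3:20242182-20242431 (minus), Prss34 at chr17:25298144-25298393 (plus) and Mcpt8 at chr14:56085274-56085447 (minus).
Ms4a2: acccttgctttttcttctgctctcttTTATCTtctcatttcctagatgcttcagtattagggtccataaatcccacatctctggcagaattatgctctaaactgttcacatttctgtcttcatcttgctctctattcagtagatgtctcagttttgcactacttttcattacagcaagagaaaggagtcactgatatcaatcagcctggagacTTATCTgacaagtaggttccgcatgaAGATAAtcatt
Cd200r3: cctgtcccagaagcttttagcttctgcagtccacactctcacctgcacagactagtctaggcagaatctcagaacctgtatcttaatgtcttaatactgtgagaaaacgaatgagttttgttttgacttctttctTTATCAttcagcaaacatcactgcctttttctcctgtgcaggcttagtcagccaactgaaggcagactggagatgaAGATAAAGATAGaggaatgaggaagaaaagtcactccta
Cpa3: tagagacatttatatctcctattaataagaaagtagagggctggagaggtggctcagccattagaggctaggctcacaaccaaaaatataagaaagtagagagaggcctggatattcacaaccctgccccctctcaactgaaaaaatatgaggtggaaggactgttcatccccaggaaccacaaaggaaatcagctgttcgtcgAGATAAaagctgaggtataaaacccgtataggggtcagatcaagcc
Prss34: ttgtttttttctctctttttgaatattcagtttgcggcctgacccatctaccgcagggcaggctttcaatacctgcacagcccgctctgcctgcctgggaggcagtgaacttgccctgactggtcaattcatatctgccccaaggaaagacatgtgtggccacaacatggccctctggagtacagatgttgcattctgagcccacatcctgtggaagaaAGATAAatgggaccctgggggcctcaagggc
Mcpt8: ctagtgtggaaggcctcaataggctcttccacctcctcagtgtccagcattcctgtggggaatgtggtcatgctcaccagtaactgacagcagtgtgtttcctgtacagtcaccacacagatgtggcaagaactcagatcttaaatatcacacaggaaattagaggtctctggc
Ms4a2 and Cd200r3 each held 3 matches, and Cpa3 and Prss34 held 1 each. The nearest match ended 6 bases before the model's start in Ms4a2, 28 in Cd200r3, 41 in Cpa3 and 26 in Prss34. Mcpt8 held 0 in the 174 bases available, Fcer1a held 1 and Ccr3 held 2 in 250. In all, 6 of the 9 genes with such letters held a match. A match was present in 26.5% of 32851 promoters over 250 bases and in 21.0% over 174 bases, and 6.4% held 2 or more over 250 bases. Matches are letters only, and binding was not measured.

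**Figure D1:**
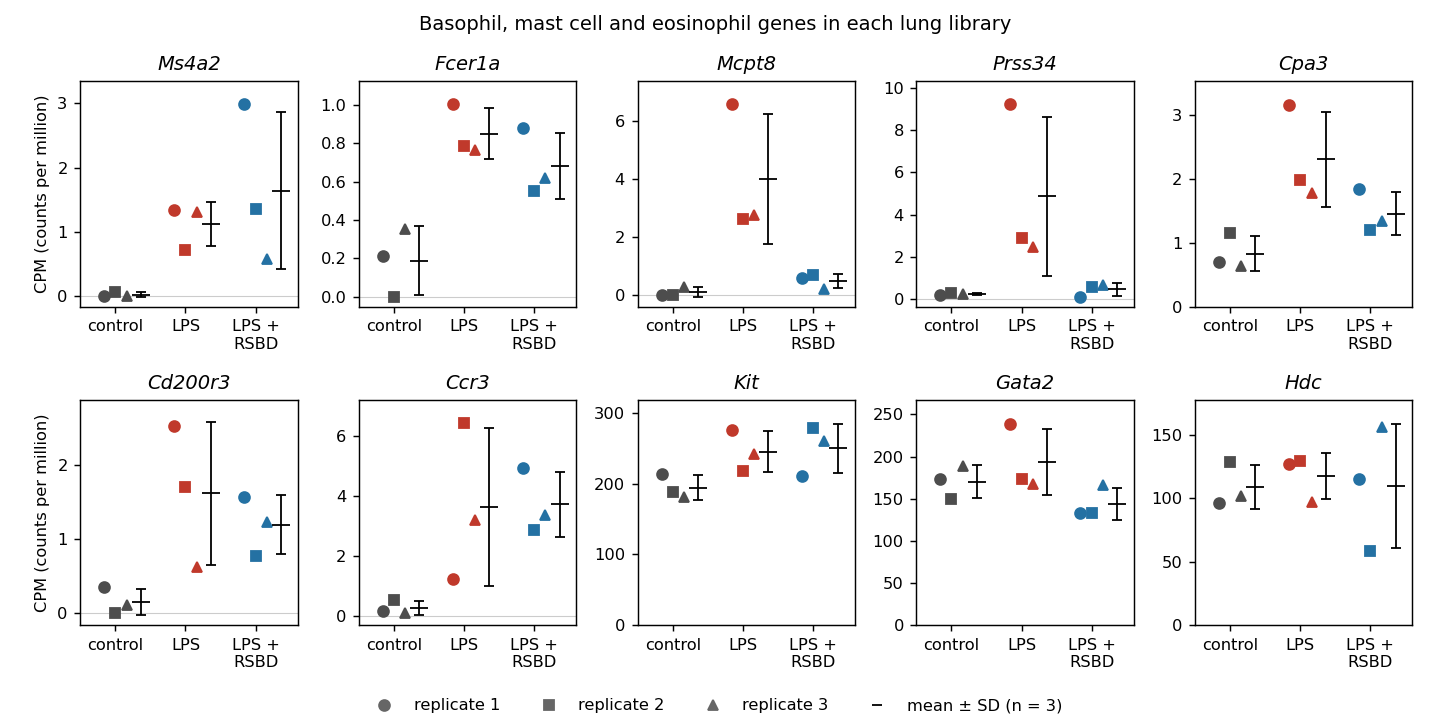
CPM of the 10 genes in each lung library (points, shaped by replicate) with the mean and SD of 3 libraries a group. Mcpt8 and Prss34 were higher in each LPS library than in any other library, Ms4a2 and Ccr3 lay above control in both groups given LPS, and Kit, Gata2 and Hdc were abundant in all libraries.

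The first comparison asks which of these transcripts differed between LPS and saline lungs on day 5. Of the 10 genes 6 rose, 0 fell and 4 did not pass. The background is 8.79% of all tested genes called higher and 8.63% called lower. The 6 were the receptor genes Ms4a2, Cd200r3 and Ccr3 and the protease genes Mcpt8, Prss34 and Cpa3. For 8 of the 10, every LPS library lay above every control library, and 18.6% of all tested genes did so. The median log2 change was 2.78, beside -0.01 over all tested genes. For 6 of the 10, at least 2 control libraries had under 10 reads, so these passed the filter through the treated groups. The counts and the median above depend in part on that filter and are no test of the 10 genes as a set.

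The IgE receptor is built from an alpha chain that binds IgE (Fcer1a), a beta chain that amplifies the signal (Ms4a2) and a gamma chain shared with other receptors (Fcer1g). Ms4a2 (ENSMUSG00000024680, chromosome 19, 11615523 to 11623719 on GRCm38) had 0, 2 and 0 reads in control libraries 1 to 3 and 36, 22 and 36 in LPS libraries 1 to 3. It was all but absent from control lungs. Its reads per library size were 48.6 times those of control (95% interval 13.1 to 407 by an exact Poisson test, counting error only, edgeR adjusted p = 0.00898). Both control reads came from control 2, so without that library the ratio has no estimate. Fcer1a (chromosome 1, 173221284 to 173227214) had 6, 0 and 10 control reads and 27, 24 and 21 LPS reads. The groups did not overlap, yet Fcer1a was not called (2.17 ± 0.75, adjusted p = 0.0694). With DESeq2, where 12.5% of genes with an adjusted p were called higher, it passed (adjusted p = 0.0235). Fcer1g, also used by macrophages and NK cells, rose by 1.20 ± 0.27 (adjusted p = 0.0202).

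All 3 granule protease genes rose after LPS. Mcpt8, a serine protease characteristic of mouse basophils (ENSMUSG00000022157, chromosome 14, 56082166 to 56085273), had 0, 0 and 8 control reads and 177, 80 and 76 LPS reads. Its level was 0.0949 ± 0.164 CPM (SD, n = 3) in saline lungs against 3.98 ± 2.25 CPM after LPS, a log2 change of 5.37 ± 0.97 (adjusted p = 0.00906). Its 95% interval ran from 3.21 to 7.53, and all its control reads came from control 3, so without that library no fold can be given. Prss34, a tryptase-like protease of basophils (ENSMUSG00000056399, chromosome 17, 25298394 to 25300165), had 6, 9 and 7 control reads and 248, 89 and 68 LPS reads. It rose from 0.249 ± 0.0377 to 4.86 ± 3.77 CPM (4.26 ± 0.72, adjusted p = 0.00743). LPS 1 was the highest library for both proteases, and without it the log2 changes were 4.80 and 3.41 and both calls held. Cpa3, carboxypeptidase A3, which mast cells and basophils store in granules (ENSMUSG00000001865, chromosome 3, 20215620 to 20242181), was present in every control lung at 20, 36 and 18 reads. It had 85, 61 and 49 reads in LPS lungs and rose by 1.47 ± 0.38 (adjusted p = 0.0287). That call was lost without control 1, control 3, LPS 1 or LPS 2 (adjusted p at most 0.0929), when the log2 change was 1.36, 1.31, 1.18 and 1.56.

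Surface receptors rose as well. Cd200r3, an activating receptor of basophils and mast cells (ENSMUSG00000036172, chromosome 16, 44943678 to 44981380), had 10, 0 and 3 control reads and 68, 52 and 17 LPS reads. The lowest LPS library stood above the highest control library by a narrow margin (0.618 against 0.352 CPM), and the log2 change was 3.39 ± 0.86 (adjusted p = 0.0277), which was 4.87 without control 1. Ccr3, the eotaxin receptor of eosinophils and basophils (ENSMUSG00000035448, chromosome 9, 124021972 to 124031689), had 4, 16 and 2 control reads and 33, 197 and 88 LPS reads. It rose by 3.86 ± 0.74 (adjusted p = 0.0115), by 5.04 without control 2 and by 3.15 without LPS 2. Ccr3 ordered the LPS lungs differently from the proteases: LPS 1, the highest for Mcpt8 and Prss34, was the lowest for Ccr3. The call of Cd200r3 was lost without control 2, control 3, LPS 1 or LPS 2 (adjusted p at most 0.0908), when its log2 change was 2.79, 3.21, 2.92 and 3.35.

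The remaining 3 genes were abundant in all lungs and were not called. Kit, the stem cell factor receptor (chromosome 5, 75574916 to 75656722), stood at 194 ± 17.4 CPM with saline and 245 ± 28.8 CPM after LPS. Its groups did not overlap (0.34 ± 0.13, adjusted p = 0.0898). Gata2 (chromosome 6, 88193891 to 88207032) measured 170.3 ± 19.7 and 193.5 ± 39.5 CPM (0.18 ± 0.15, adjusted p = 0.423). Hdc, histidine decarboxylase, the enzyme that makes histamine (chromosome 2, 126593667 to 126619299), measured 109 ± 17.4 and 118 ± 18.2 CPM (0.11 ± 0.30, adjusted p = 0.822). For Gata2 and Hdc the control and LPS libraries overlapped, and their 95% intervals for the log2 change ran from -0.16 to 0.52 and from -0.56 to 0.79.

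Scaled for transcript length, the genes fell into an abundant and a rare class. Levels between genes are given in the authors' TPM, which scales reads by transcript length and library size. In control lungs Gata2 measured 96.3 ± 11.4, Hdc 89.3 ± 16.01 and Kit 73.6 ± 2.70 TPM, and the library ranges of neighbours in this order overlapped. Cpa3 followed at 1.01 ± 0.371 TPM, above Prss34 in every control library, and Ms4a2 was last at 0.0162 ± 0.0281 TPM. After LPS the proteases Mcpt8 (8.29 ± 5.51 TPM) and Prss34 (7.14 ± 6.26 TPM) led the rare class, ahead of Cpa3 at 2.81 ± 1.145 TPM. From Mcpt8 down to Fcer1a, at 1.43 ± 0.356 TPM, no neighbouring pair was separated by its library range. In lungs given LPS plus RSBD, Ccr3 led that class at 1.94 ± 0.601 TPM and Prss34 was last at 0.627 ± 0.413 TPM. TPM per read differed between libraries by 1.40 to 1.87 times for 9 of the genes but by 2.84 times for Ms4a2. For Ms4a2 it was lowest in control 2, with 2 reads, at 0.0243 and highest in LPS 1 at 0.069. Low values also came from libraries with more reads, such as 0.0254 in RSBD 1. With 36 reads in each, Ms4a2 measured 2.48 TPM in LPS 1 but 0.960 TPM in LPS 3.

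Kit and Gata2 are also made by cells outside these lineages, and the markers of such cells were measured in the same libraries. The 10 endothelial markers, among them Pecam1 and Cdh5, summed to 4316 to 4726 CPM in control, 4122 to 5009 CPM in LPS and 4206 to 4610 CPM in LPS plus RSBD lungs. Of these 3 rose after LPS and 0 fell, where 8.79% of all tested genes were called higher and 8.63% lower. Of 5 blood progenitor markers, Cd34 and Flt3 rose, Mecom and Meis1 fell and 1 did not pass, and their sum was 275 to 338 CPM in control and 269.5 to 330 CPM in LPS lungs. Of 7 markers of group 2 innate lymphoid cells 0 passed. The part of these cells in the levels of Kit and Gata2 was not tested.

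**Figure D2:**
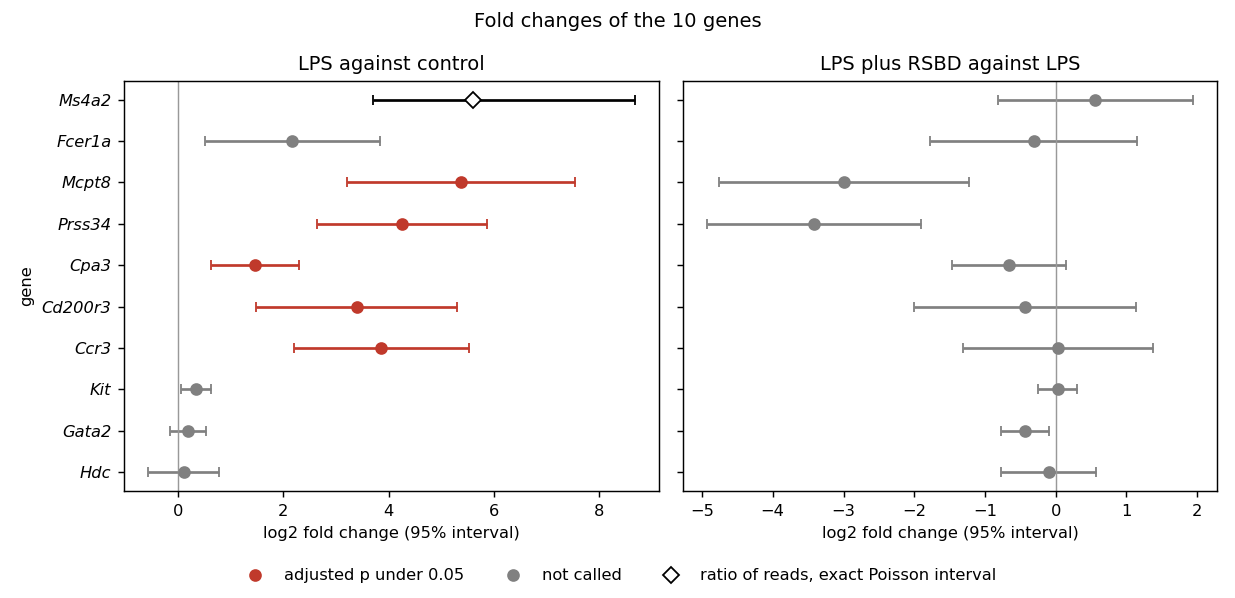
Log2 fold change of each gene with its 95% interval, LPS against control (left) and LPS plus RSBD against LPS (right). Red points passed an adjusted p of 0.05, and the open diamond is the read ratio of Ms4a2 with its exact Poisson interval. The largest shifts on the right are those of Mcpt8 and Prss34, at -2.995 and -3.42, and no gene passed there.

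The second comparison asks whether RSBD changed these transcripts in LPS lungs. By edgeR 0 of the 10 genes passed, as did 0 of all 15636 tested genes in either direction (0.0%). At an unadjusted p under 0.05, 3 of the 10 and 1473 of all tested genes (9.42%) passed. The largest differences belonged to the basophil proteases Mcpt8 and Prss34, which were lower in every RSBD lung than in any LPS lung. Such separation downwards was seen for 3 of the 10 genes and for 5.46% of all tested genes, the third being Gata2. The LPS libraries are the same as in the comparison with control.

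Mcpt8 had 21, 21 and 6 reads in LPS plus RSBD libraries 1 to 3, against 177, 80 and 76 with LPS alone. Its level was 0.490 ± 0.241 CPM against 3.98 ± 2.25 CPM, a log2 difference of -2.995 ± 0.79 (unadjusted p = 0.00369, edgeR adjusted p = 0.387). Prss34 had 4, 18 and 19 reads against 248, 89 and 68. Its level was 0.460 ± 0.309 CPM against 4.86 ± 3.77 CPM, a log2 difference of -3.42 ± 0.68 (unadjusted p = 0.000504, adjusted p = 0.331). Among all tested genes Prss34 ranked 22nd and Mcpt8 149th by p, and Prss34 16th and Mcpt8 18th from the lowest fold change. DESeq2 called both (adjusted p = 0.0101 for Mcpt8 and 0.000228 for Prss34). With that tool 62 genes, or 0.39% of those with an adjusted p, were called lower. Without LPS 1, the highest library for both, the log2 differences were -2.43 and -2.56 (edgeR adjusted p = 0.373 and 0.328).

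The other receptor and protease genes stayed at levels that overlapped those of LPS lungs. Ms4a2 had 109, 42 and 16 reads after LPS plus RSBD and 36, 22 and 36 after LPS alone. Its log2 difference was 0.56 ± 0.62 with a 95% interval from -0.82 to 1.94, and without the library with 109 reads it was -0.20. Ccr3 had 180, 88 and 92 reads against 33, 197 and 88, a difference of 0.03 ± 0.60 with an interval from -1.31 to 1.377. Neither interval shows that the groups were alike: the fold itself could lie between 0.403 and 2.597 for Ccr3 and between 0.568 and 3.84 for Ms4a2. Cd200r3 had 57, 24 and 34 reads against 68, 52 and 17 (-0.43 ± 0.71, interval -2.004 to 1.14). Fcer1a had 32, 17 and 17 reads against 27, 24 and 21 (-0.31 ± 0.66, interval -1.78 to 1.15). Cpa3 had 67, 37 and 37 reads against 85, 61 and 49 (-0.66 ± 0.36, interval -1.47 to 0.15). Each of these 5 genes overlapped between the groups.

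Kit measured 250 ± 35.0 CPM and Hdc 109.8 ± 49.0 CPM after LPS plus RSBD, and both overlapped LPS lungs. Hdc spread most in this group, from 58.4 CPM in library 2 to 156 CPM in library 3. Gata2 measured 144 ± 19.1 CPM, and its highest RSBD library, at 166 CPM, lay just under the lowest LPS library, at 168 CPM. Its log2 difference was -0.43 ± 0.15 (unadjusted p = 0.0185, adjusted p = 0.443).

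Mcpt8 and Prss34 took a larger share of the reads of 6 basophil and mast cell genes in each LPS lung than in any other lung. This summary was chosen after the values were seen, so it is a description with no test and supports no difference between groups. Of the reads of Ms4a2, Mcpt8, Cd200r3, Cpa3, Prss34 and Fcer1a together, Mcpt8 and Prss34 made up 14.3%, 19.15% and 32.6% in control libraries 1 to 3, from 42, 47 and 46 reads. They made up 66.3%, 51.5% and 53.9% in LPS libraries, from 641, 328 and 267 reads. In LPS plus RSBD libraries they made up 8.62%, 24.5% and 19.4%, from 290, 159 and 129 reads. The 95% Wilson interval was 46.1% to 56.9% for the lowest LPS share, 18.5% to 31.8% for the highest RSBD share and 20.9% to 47.0% for the highest control share, which overlaps that of LPS. These intervals cover counting error within a library only, not the spread between lungs. The other 4 genes summed to 1.10 to 1.27 CPM in control, 4.47 to 8.02 CPM in LPS and 3.78 to 7.27 CPM in LPS plus RSBD lungs. The protease share of RSBD lungs overlapped that of control lungs, while the sum of the other 4 genes overlapped that of LPS lungs and lay above every control lung.

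**Figure D3:**
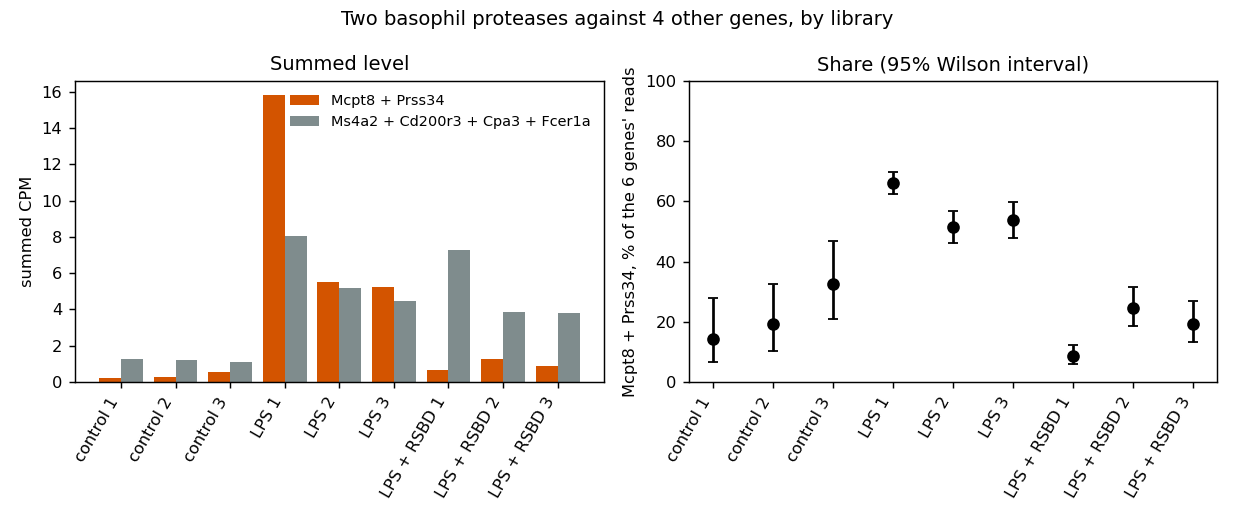
Left, summed CPM of Mcpt8 and Prss34 (orange) and of Ms4a2, Cd200r3, Cpa3 and Fcer1a (grey) in each library. Right, the share of Mcpt8 and Prss34 in the reads of the 6 genes with its 95% Wilson interval (counting error only). The share is at least 51.5% in the 3 LPS libraries and at most 32.6% in the other 6, and the interval of control 3 overlaps that of LPS 2.

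The summed neutrophil markers, like Mcpt8 and Prss34, were highest in LPS 1, although single markers such as S100a8 and Csf3r peaked in other libraries. The sum of 11 neutrophil markers was 834 to 2302 CPM in control, 2591 to 7285 CPM in LPS and 709 to 3327 CPM in LPS plus RSBD lungs. Every LPS lung lay above every control lung, and the RSBD lungs overlapped both. Their median log2 difference between LPS plus RSBD and LPS was -2.0, beside 0.01 over all tested genes, and 0 of 11 were called. Mpo and Elane are granule enzymes made early in granulocyte development, named here after their values were seen. Like Ngp and Camp, they were lower in every RSBD lung than in any LPS lung, and the rest of the 11 overlapped. Such separation downwards was seen for 5.46% of all tested genes. Ngp had 21000, 16871 and 6547 reads in LPS lungs and 264, 956 and 1537 in LPS plus RSBD lungs (-4.07 ± 0.91, adjusted p = 0.348). Camp had 2536, 2595 and 1022 reads, then 44, 151 and 200 (-4.04 ± 0.81, adjusted p = 0.331). Mpo had 612, 203 and 112 reads in LPS lungs and 6, 13 and 35 in LPS plus RSBD lungs (-4.21 ± 1.23, adjusted p = 0.397). Elane had 313, 88 and 67 reads in LPS lungs and 0, 6 and 37 in LPS plus RSBD lungs (-3.51 ± 1.32, adjusted p = 0.478). In control libraries 1 to 3 Mpo had 27, 20 and 276 reads and Elane 9, 14 and 100. Mcpt8 had 0, 0 and 8 reads in the same libraries and Prss34 6, 9 and 7. The part of neutrophils or early granulocytes in the protease result was not tested.

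The third comparison sets LPS plus RSBD lungs against saline lungs, which also serve as the control of the first. Of the 10 genes 2 rose, 0 fell and 8 did not pass, where 1.89% of all tested genes were called higher and 1.8% lower. The 2 were the IgE receptor beta chain Ms4a2 and the eotaxin receptor Ccr3. Ms4a2 had 77.3 times the reads per library size of control lungs (95% interval 21.1 to 644 by the exact Poisson test, counting error only, edgeR adjusted p = 0.015). Its RSBD libraries 1 to 3 had 109, 42 and 16 reads, a spread between lungs that the interval leaves out. Ccr3 rose by 3.89 ± 0.74 (adjusted p = 0.0262). Cd200r3 was higher by 2.96 ± 0.86 and Fcer1a by 1.86 ± 0.75 without passing (adjusted p = 0.0839 and 0.176). With DESeq2, which called 875 genes higher in this comparison, Cd200r3 passed (adjusted p = 0.00719) and Fcer1a did not (adjusted p = 0.0982). Mcpt8 measured 2.38 ± 1.01 and Prss34 0.84 ± 0.76 on the log2 scale (adjusted p = 0.201 and 0.545), and both overlapped control lungs. All RSBD libraries exceeded all control libraries for 5 genes, namely Ms4a2, Cd200r3, Cpa3, Fcer1a and Ccr3, beside 15.4% of all tested genes. All of these but Cpa3 had under 10 reads in at least 2 control libraries and passed the filter through the treated groups. The call of Ms4a2 was lost without control 2 or control 3 (adjusted p = 0.0539 and 0.0582) and with limma on log2(TPM + 1) (adjusted p = 0.0606). Without control 2 no control read was left, and without control 3 the fitted log2 change, which depends on the prior count, was 5.47 in place of 5.95. That of Ccr3 was lost without control 1, control 3, RSBD 1 or RSBD 2 (adjusted p at most 0.0847), when its log2 change was 3.63, 3.48, 3.63 and 4.05.

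The genes around these 10 were grouped by role into 8 lists. The background for the calls of each list after LPS is 8.79% of all tested genes called higher and 8.63% called lower. In the IgE receptor signalling list 7 of 12 genes rose after LPS and 0 fell (median 0.56). Lyn, the kinase that phosphorylates the receptor, rose by 0.76 ± 0.13, the adaptor Lat2 by 0.85 ± 0.17 and the kinase Btk by 0.85 ± 0.17 (adjusted p = 0.00768, 0.0112 and 0.0132). These genes also serve B cells and macrophages. Of 8 other genes linked to basophils 6 rose and 0 fell (median 0.76). They included the alpha chain of the interleukin 3 receptor, Il3ra (0.90 ± 0.19, adjusted p = 0.0133), the shared cytokine receptor chains Csf2rb2 (1.09 ± 0.24, adjusted p = 0.0202) and Csf2rb (1.13 ± 0.27, adjusted p = 0.025), and the integrin Itga2 (0.62 ± 0.13, adjusted p = 0.0147). Il4, a cytokine that basophils secrete, was not called (-0.63 ± 0.38, adjusted p = 0.268). The 8 genes of this list summed to 388 to 429 CPM in control and 495 to 643 CPM in LPS lungs. The part of cells other than basophils in those sums was not tested.

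Markers of tissue mast cells had few reads in any lung. Of 9 such genes 2 had enough reads to test, the chymases Cma1 and Mcpt4, and 0 were called. Cma1 had 11, 15 and 9 reads in control, 24, 11 and 22 in LPS and 44, 22 and 33 in LPS plus RSBD lungs. Mcpt4 had 7, 21 and 40, then 21, 6 and 19, then 22, 12 and 10 reads. The tryptase Tpsab1 had 0, 9 and 10 control reads and 0 in all 6 LPS lungs, and Tpsb2 had at most 24 reads in any library. Tpsg1 and Mrgprb2 had 0 reads in every library. The 9 genes summed to 1.13 to 3.38 CPM in control, 0.555 to 2.12 CPM in LPS and 1.48 to 2.63 CPM in LPS plus RSBD lungs, so the groups overlapped.

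Eosinophil genes were called only in part. Of 9 genes 7 were tested and 2 rose after LPS, Siglecf (1.11 ± 0.20, adjusted p = 0.00906) and the ribonuclease Ear2 (1.51 ± 0.25, adjusted p = 0.00753), both of which alveolar macrophages also make. The 8 alveolar macrophage markers summed to 1264 to 1644 CPM in control and 1732 to 3597 CPM in LPS lungs. Of the 8 markers 2 rose, where 8.79% of all tested genes were called higher. Epx, eosinophil peroxidase and a defining granule gene, had 0, 1 and 3 reads in control, 5, 16 and 5 in LPS and 0, 2 and 8 in LPS plus RSBD lungs. Prg3 had 0, 5 and 0, then 10, 8 and 7, then 0, 0 and 0 reads. Epx and Prg3 had too few reads to test. Prg2, the major basic protein, and Il5ra, the interleukin 5 receptor, were not called (0.15 ± 0.34 and 0.32 ± 0.51, adjusted p = 0.787 and 0.689). LPS 2 was the highest library for Epx, for Ear2 (6561 reads) and for Ccr3, and also for the summed alveolar macrophage markers (3597 CPM). The eosinophil genes did not all have most reads there: Prg2 and Il5ra had most in RSBD 1 (508 and 84) and Prg3 in LPS 1 (10). These reads are not scaled, and RSBD 1 had the largest library total. Il5ra had 78 reads in RSBD 3 and 76 in control 2, from smaller totals. The part of alveolar macrophages in the changes of Siglecf and Ear2 was not tested.

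**Figure D4:**
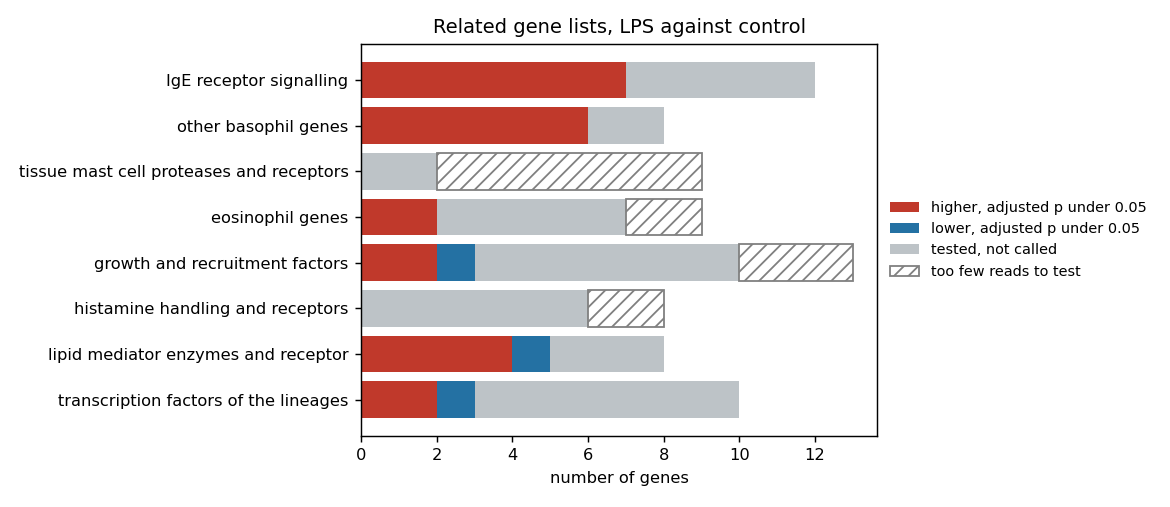
Number of genes in each of 8 related lists that were called higher (red), called lower (blue), tested and not called (grey) or had too few reads to test (hatched) in LPS against control lungs. IgE receptor signalling and other basophil genes hold the most calls, 7 of 12 and 6 of 8, and tissue mast cell genes hold 0. Among all tested genes 8.79% were called higher and 8.63% lower.

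Signals that feed or attract these cells did not move one way. Of 13 growth and recruitment factors 10 were tested, 2 rose and 1 fell after LPS. Il18, which activates basophils among other cells, rose by 1.09 ± 0.19 and the chemokine Ccl5 by 1.06 ± 0.24 (adjusted p = 0.00807 and 0.0213). Il33, an epithelial alarmin that activates basophils and mast cells, fell by 1.24 on the log2 scale (SE 0.27, adjusted p = 0.0186). Il3, the main growth factor of basophils, had 2 reads over the 9 libraries together, both in LPS 3, and Il9 had 0. Kitl, the ligand of Kit, measured 191 CPM in LPS and 190.1 CPM in LPS plus RSBD lungs on average and was not called in either comparison. The eotaxin Ccl11 was higher in LPS plus RSBD than in LPS lungs by 1.00 ± 0.33 without passing (adjusted p = 0.412).

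Lipid mediators, the leukotrienes and prostaglandins, are made by granulocytes on activation. Of 8 lipid mediator genes 4 rose after LPS and 1 fell. Alox5, which starts leukotriene synthesis, rose by 1.20 ± 0.24, Ltc4s, leukotriene C4 synthase, by 1.00 ± 0.19 and Lta4h by 0.40 ± 0.07 (adjusted p = 0.0128, 0.00995 and 0.00841). Ptgs1, cyclooxygenase 1, fell by 0.605 (SE 0.12, adjusted p = 0.0107). Of 8 genes for histamine storage, breakdown and receptors 6 were tested and 0 were called in any comparison, among them Slc18a2, the granule transporter of histamine (0.28 ± 0.24, adjusted p = 0.4498). Of 10 lineage transcription factors 2 rose and 1 fell. Gata1, shared by basophils, mast cells, eosinophils and red cell precursors, rose by 1.93 ± 0.58 (adjusted p = 0.0483), with 50, 12 and 69 reads in control and 225, 148 and 118 in LPS lungs. Ikzf1, of lymphoid and myeloid cells, rose by 0.61 ± 0.14, and Lmo2 fell by 0.71 (adjusted p = 0.0185 and 0.0376). In LPS plus RSBD against LPS 0 genes of the 8 lists were called.

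The rare genes' pattern was compared with that of other genes over the 9 libraries. Among 14175 genes outside the lists, those closest to the mean centred log2 profile of the 6 genes were F2rl2, a thrombin receptor family gene, the NK cell receptor Klra3, I830077J02Rik, the DNA exonuclease Trex1 and the orphan receptor Gpr141. Their root mean square differences from that profile were 0.52, 0.53, 0.55, 0.61 and 0.62 on the log2 scale, and the 6 genes themselves differed from it by 0.68 to 1.13. F2rl2 had 72, 58 and 62 reads in control, 382, 217 and 233 in LPS and 186, 159 and 168 in LPS plus RSBD lungs, so like Prss34 it was highest in LPS 1.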

How the data were processed

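Lung RNA of 9 mice was sequenced in 3 groups of 3, described as biological replicates in the series' design text. Per the labels' protocols, mRNA was enriched and strand-specific libraries were read as pairs of 150 bases. The submitters' processing notes list the genome build GRCm38 and the tools StringTie 2.2.0, DESeq2 1.38.3, HISAT2 2.2.1 and fastp 0.23.2 with no role or order. Which of them counted reads, and on which annotation, is not given in the sources used here. Of the files, the first deposited table holds estimated counts (expected counts), all whole, so none was rounded. The deposited TPM of the authors served for levels between genes and for alternatives. The columns of the RSBD libraries were matched by elimination and replicate number.

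Counts were tested in R 4.3.3 with edgeR 4.0.16 (filterByExpr with a minimum count of 10 and a minimum total of 15, TMM, robust quasi-likelihood F test, 2-sided, all 9 libraries in 1 fit, group as factor). The code was checked on simulated data. For Ms4a2, with 2 control reads, the text gives an exact Poisson ratio. The count table holds 2989 values of 2 but 1349 of 1, so the unit counted may not be 1 fragment each, and the Poisson and Wilson intervals, which cover counting error only, may be too narrow. Alternatives were DESeq2 1.42.0, RLE scaling, library totals, no filter, 2 groups only, a replicate block, no robust estimation, limma 3.58.1 on log2 TPM and leaving out each library. The genes, lists and tests were chosen with earlier results of these data known, and 2 alternatives were added after the data were seen. Named genes are the 10 members, up to 4 called genes a list with the smallest p, list genes with 0 reads, and the 5 nearest in profile (at least 1 CPM in LPS lungs). Others were named after their values were seen.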

Additional observations from a re-analysis of the deposited data

How the results depend on the processing

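In LPS against control lungs the log2 change of each of the 10 genes kept its sign under all 18 alternatives, and 4 to 7 of the 10 were called. Leaving out 1 library changed the number of all genes called there from 2723 to between 786 (without LPS 2) and 2870. In LPS plus RSBD against LPS, edgeR called 0 genes, 1 with 2 groups only and 0 to 4 with a library left out. DESeq2 called 154 there, 2 of the 10 genes among them, and limma on log2(TPM + 1) or log2(TPM + 0.1) called 1 each. The sign of 5 genes that passed nowhere in that comparison turned when a library was left out: the log2 difference ran from -0.20 to 0.94 for Ms4a2, from -0.84 to 0.038 for Cd200r3, from -0.38 to 0.74 for Ccr3, from -0.059 to 0.14 for Kit and from -0.45 to 0.20 for Hdc. Mcpt8 stayed between -3.28 and -2.11 and Prss34 between -3.85 and -2.10 over the 18 alternatives (adjusted p 0.0101 to 0.858 and 0.000228 to 0.795).

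In LPS plus RSBD against control, 578 genes were called, but 1702 with DESeq2, 252 with log2(TPM + 1), 268 with log2(TPM + 0.1) and 94 to 961 with a library left out. Of the 10 genes 0 to 2 were called with a library left out (0 without control 3), 1 with log2(TPM + 1) and 3 with DESeq2. Hdc, near 0 in that comparison, measured -0.13 with both TPM fits and -0.33 to 0.32 with a library left out. With the replicate block 240 genes were called in place of 578, Hdc measured -0.023, and no other call among the 10 genes changed. Replicate numbers did not pair the lungs: the correlation of deviations was -0.254 to 0.164 over 9 same-numbered pairs and -0.176 to 0.256 over 18 others. The causes of these changes were not tested. With 2 or fewer control reads, depth limits the fold of Ms4a2 to its counting interval. With every count divided by 2, an alternative added after seeing the data, that interval widened to between 8.31 and 1959 in LPS against control.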
